A study of Mus musculus with 8 samples.

Results

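The alarmin receptors and the IL-1 family decoy receptor were followed across 8 RNA libraries of group 2 innate lymphoid cells (ILC2s), lymphocytes that carry no antigen receptor and release type 2 cytokines. The 9 genes were the rows named Il1rl1, Il1rap, Il18r1, Il18rap, Il1r2, Il17rb, Il17ra, Crlf2 and Myd88, of 22075 genes in the table. They were taken by gene name, from a list drawn up with earlier results of these data known. All cells were lung ILC2s of the C57BL/6 strain, isolated after brief exposure of the mice to papain, an airway allergen, and all were first cultured with 10 ng/ml IL-2 for some 5 days. WT control and WT IL-33 cells were Stat3fl/fl, without Cre. STAT3-KO control and STAT3-KO IL-33 cells were VavicreStat3fl/fl, in which Vav-iCre, a Cre recombinase driven in the blood lineage, removes the floxed part of Stat3. IL-33 at 10 ng/ml was then added for 2 further days in the IL-33 groups, and the labels do not describe the medium of the controls in that time. Each of the 4 groups held 2 libraries. The labels do not state that these came from separate mice or cultures, so p-values measure the spread between these samples, which may be technical. As WT cells carried no Cre, loss of STAT3 and presence of Vav-iCre cannot be told apart.

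Alarmins are cytokines that epithelial and other tissue cells release on damage, and IL-33, IL-25 and TSLP are those that act on ILC2s. IL-33 binds ST2 (Il1rl1), which then pairs with the shared accessory chain IL-1RAcP (Il1rap) and signals through the adaptor MyD88 and IRAK kinases, a route also used by the IL-18 receptor (Il18r1 with Il18rap). IL-25 binds IL-17RB (Il17rb) paired with IL-17RA (Il17ra), and TSLP binds TSLPR (Crlf2) paired with the IL-7 receptor alpha chain (Il7r). The decoy IL-1R2 (Il1r2) binds IL-1 but has no signalling domain, and ST2 also exists as a soluble form that captures IL-33.

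The windows before the transcription starts of the members with the largest shifts, and of the 2 IL-18 receptor genes beside Il1rl1, are printed here because IL-33 and STAT3 act on genes through factors that read such DNA. They come from RefSeq on GRCm38.p6, hold the 250 bases before each start, and read 5′ to 3′ on the strand of the gene. Of the 9 members, 8 matched an entry, with 11 windows in all, and Il17ra had none. Capitals mark matches on either strand to the STAT motif TTCNNNGAA, the GATA motif GATAA, the AP-1 motif TGANTCA and the NF-kB motif GGGNNTTCC, and no 2 matches overlapped. Il1r2 (chr1:40085843-40086092, plus strand), Il1rl1 at its distal start (chr1:40429320-40429569, plus strand), Il1rl1 at its proximal start (chr1:40439379-40439628, plus strand), Il17rb (chr14:30008897-30009146, minus strand), Il18r1 at the last of its 3 starts (chr1:40465756-40466005, plus strand) and Il18rap (chr1:40515112-40515361, plus strand) read as follows.
Il1r2: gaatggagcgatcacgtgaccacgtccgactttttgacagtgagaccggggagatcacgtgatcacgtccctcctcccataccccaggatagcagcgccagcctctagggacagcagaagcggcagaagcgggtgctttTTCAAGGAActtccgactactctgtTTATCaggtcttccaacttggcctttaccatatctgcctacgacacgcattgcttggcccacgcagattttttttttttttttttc
Il1rl1 distal: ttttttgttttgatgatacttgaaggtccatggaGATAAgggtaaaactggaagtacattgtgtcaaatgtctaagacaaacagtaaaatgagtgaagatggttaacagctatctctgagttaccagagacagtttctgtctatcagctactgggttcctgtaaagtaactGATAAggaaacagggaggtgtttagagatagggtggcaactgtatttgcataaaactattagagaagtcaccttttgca
Il1rl1 proximal: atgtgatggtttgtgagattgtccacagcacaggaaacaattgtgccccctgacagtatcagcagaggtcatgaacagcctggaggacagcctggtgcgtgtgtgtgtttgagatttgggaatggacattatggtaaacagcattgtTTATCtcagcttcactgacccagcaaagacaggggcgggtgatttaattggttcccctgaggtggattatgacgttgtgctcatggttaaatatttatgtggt
Il17rb: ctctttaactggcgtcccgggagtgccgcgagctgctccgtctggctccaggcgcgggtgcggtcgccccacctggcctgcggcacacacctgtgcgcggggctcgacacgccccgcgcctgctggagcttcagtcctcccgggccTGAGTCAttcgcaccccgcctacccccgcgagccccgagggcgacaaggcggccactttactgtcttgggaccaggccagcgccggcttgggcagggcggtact
Il18r1: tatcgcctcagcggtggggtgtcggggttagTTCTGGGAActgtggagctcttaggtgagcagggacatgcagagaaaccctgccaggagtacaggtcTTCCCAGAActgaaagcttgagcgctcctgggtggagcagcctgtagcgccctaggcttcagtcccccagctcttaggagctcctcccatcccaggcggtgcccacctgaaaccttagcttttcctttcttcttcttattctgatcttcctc
Il18rap: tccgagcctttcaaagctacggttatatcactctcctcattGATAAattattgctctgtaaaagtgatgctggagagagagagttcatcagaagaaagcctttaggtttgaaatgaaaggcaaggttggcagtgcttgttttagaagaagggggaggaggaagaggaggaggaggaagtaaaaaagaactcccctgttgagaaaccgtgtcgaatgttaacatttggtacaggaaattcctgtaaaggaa

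The Il1r2 window held a STAT match, TTCAAGGAA, at positions -111 to -103 relative to the start, and a GATA match on the other strand, TTATC, at -86 to -82. Both Il1rl1 windows held GATA matches, 2 at the distal and 1 at the proximal start, which lie 10.059 kb apart. The Il17rb window held an AP-1 match, TGAGTCA, the Il18r1 window shown 2 STAT matches and the Il18rap window 1 GATA match. The window of Myd88, a gene that was nearly level across the groups, is not printed and also held a STAT match, TTCTCGGAA, at -46 to -38. The windows of the other 2 starts of Il18r1 held 0 matches to any of these motifs. Among the 11 windows of the members, STAT, GATA, AP-1 and NF-kB letters were found in 3, 4, 1 and 0. Among all 32851 windows of this length they were found in 7.02%, 22.6%, 6.75% and 4.98%. A match is a run of letters and not a site shown to be bound.

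Depth ranged from 15843673 to 19905777 reads per library, as the steps between FPKM values (fragments per kilobase of exon, scaled to library depth) show. For a 1 kb gene, 3 reads make 0.151 to 0.189 FPKM. Stat3, the deleted gene, measured 41.7 and 50.7 FPKM in WT control, 15.3 and 16.0 in STAT3-KO control, 49.0 and 55.3 in WT IL-33, and 8.03 and 9.69 in STAT3-KO IL-33, so that every STAT3-KO library lay below every WT library. Its mean was 2.95-fold lower in STAT3-KO control than in WT control (adjusted p = 0.00771), which was no longer called without STAT3-KO control library 1 (-1.47, adjusted p = 0.0684) or library 2 (-1.53, adjusted p = 0.0585). All 12 ILC2 markers were measured, with Gata3 between 171 and 516 FPKM in every library, and they moved with the groups. With IL-33, 4 rose and 4 fell in WT and 3 rose and 9 fell in STAT3-KO, and 10 of the 12 were lower in STAT3-KO than in WT with IL-33, the same number as were lower by the interaction. Thy1, for example, measured 31.7 and 38.0 FPKM in WT IL-33 and 2.56 and 2.37 in STAT3-KO IL-33, and Klrg1 884 and 943 against 279 and 298. Il7r, described with Crlf2, is one of these 12 markers. Of 8 T cell markers, 6 stayed below 1 FPKM in every library, and the highest, Cd3g, reached 9.15. Mast cell and basophil markers moved with the groups: the 4 of 8 with values summed to 299 to 326 FPKM in WT control, 111 to 140 in STAT3-KO control, 128 to 156 in WT IL-33 and 7.53 to 8.72 in STAT3-KO IL-33. That sum was nearly all Cpa3, apart from Mcpt8 at 92.8 and 113 FPKM in WT IL-33 and at most 0.246 elsewhere, with 0 in WT control library 1, both STAT3-KO control libraries and STAT3-KO IL-33 library 2. The other 2 with values, below 1 FPKM in every library, were Cma1 and Hdc. Markers of NK cells and ILC1 summed to 8.78 to 10.5, 26.7 to 29.3, 2.51 to 2.61 and 4.44 to 4.98 FPKM in the same order, led by Prf1 in the WT groups and by Tbx21 in the STAT3-KO groups. B cell markers, 2 of 4 with values, summed to 7.92 to 8.15, 3.26 to 4.13, 13.1 to 13.9 and 19.6 to 21.9 FPKM. That was nearly all Cd79b, the 1 B cell marker tested, which rose with IL-33 in both genotypes and was higher in STAT3-KO with IL-33 and by the interaction. The ILC3, macrophage and monocyte, neutrophil and dendritic cell lists reached at most 4.52, 6.78, 2.29 and 7.09 FPKM in sum, and epithelial and stromal markers, mostly Pecam1, 21.2 to 31.1. The part of the ILC2 marker differences and of these other cells in the results below was not tested, and in bulk RNA fewer cells of a type and less RNA per cell cannot be told apart.

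With IL-33, Il1r2 rose and Il17rb and Il17ra fell in WT cells, 1 higher and 2 lower of 9. That is near the share over all 11877 tested genes, of which 14.5% rose and 21.6% fell (36.1% in either direction). In STAT3-KO cells Il1r2 and Il18r1 rose and Il1rl1, Il18rap, Il17rb, Il17ra and Crlf2 fell, 2 higher and 5 lower of 9, where 20.4% of all tested genes rose and 30.6% fell (51.0% in either direction). With IL-33 on both sides, Il1rl1, Il18rap, Il1r2, Il17rb, Il17ra and Crlf2 were lower in STAT3-KO than in WT, 6 of 9, and 0 were higher, against 16.4% and 16.3% of all tested genes (32.6% in either direction). The same 6 genes had a lower IL-33 response in STAT3-KO than in WT by the interaction, the test of that difference itself, which called 8.43% of all tested genes lower and 6.72% higher (15.1% in either direction). In both of these comparisons 10 of the 12 ILC2 markers were also lower. Genes were called at an adjusted p below 0.05 in limma, and the last 2 comparisons share the libraries of the IL-33 groups. The median log2 difference of the 9 genes was 0.15 in WT and -0.78 in STAT3-KO with IL-33, where the median over all tested genes was -0.14 and -0.18. Median-of-ratios scaling moved those medians over all genes to -0.01 and -0.02, and it turned the split of all called genes from 1724 higher and 2561 lower to 2246 and 1881 in WT, and from 2425 and 3638 to 3062 and 2832 in STAT3-KO. The groups of IL-33 and control did not overlap for 7 of the 9 in WT and 9 of 9 in STAT3-KO, where 70.4% and 77.0% of all tested genes did not. Both counts include Il1rap, which passed the filter only through control libraries, where it was high, and they are given as a description. The genotypes with IL-33 did not overlap for 9 of 9, against 66.9%. Under median-of-ratios scaling 2 members were higher and 2 lower in WT, and 3 higher and 4 lower in STAT3-KO. Between the genotypes with IL-33 that scaling gave 1 member higher in STAT3-KO, Il18r1, and 6 lower.

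**Figure D1:**
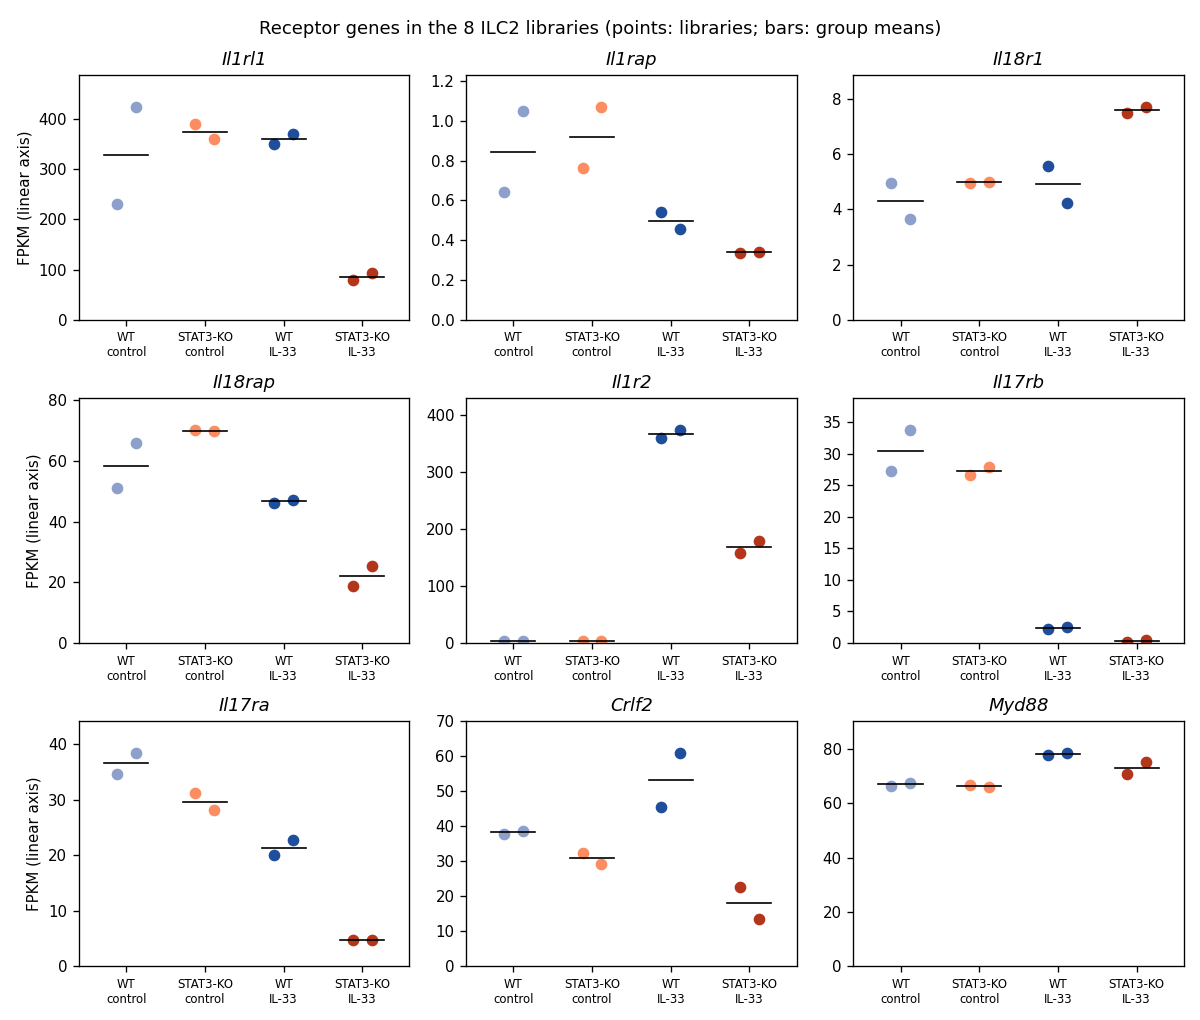
FPKM (linear axes from 0) of the 9 receptor genes in the 8 ILC2 libraries, with points for libraries and bars for group means (n = 2). Il1r2 lies between 2.81 and 3.40 FPKM in all controls and between 158 and 374 in the IL-33 libraries, and Il1rl1 is lowest in the STAT3-KO IL-33 libraries, at 78.5 and 92.4.

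Without IL-33 no receptor difference between the genotypes was called. Of the 9 genes, 0 were called between STAT3-KO control and WT control, where 0.463% of all tested genes were called, 0.253% higher and 0.210% lower. That is 55 genes, against 34 called with a pseudocount of 0.1 and 0 in a fit of those 2 groups alone. At an unadjusted p below 0.05 there were 1106 genes in the full fit and 1062 in the smaller. Adjusted p-values of the members ran from 0.543 (Il17ra) to 0.993 (Myd88). The 95% interval of the log2 difference reached from -0.81 to 0.21 for Crlf2 and from -0.28 to 0.80 for Il1rl1. With 2 libraries a group, differences within those limits were therefore not excluded. The interval was narrower for Myd88, from -0.23 to 0.20, and for Il1r2, from -0.13 to 0.40. In 5 of the 9 genes the control groups did not overlap, where 38.0% of all tested genes did not.

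**Figure D2:**
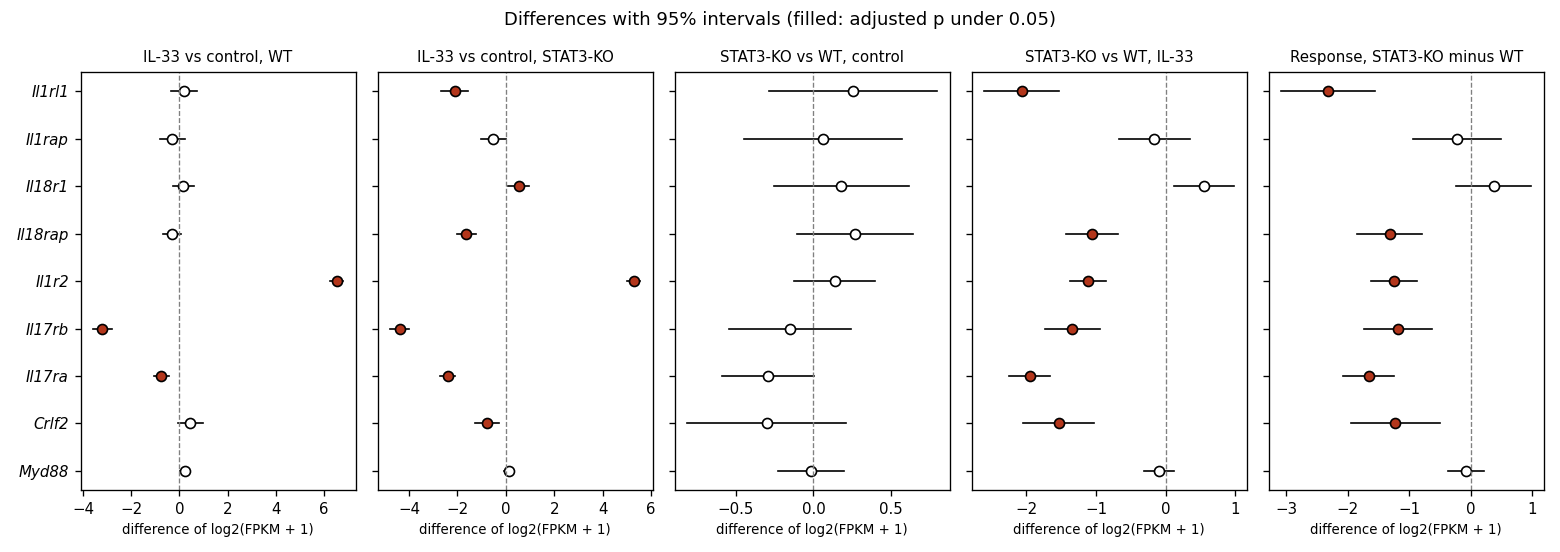
Differences of log2(FPKM + 1) for the 9 receptor genes in the comparisons of the 4 groups, with bars for the 95% interval and filled symbols for an adjusted p below 0.05. Il1r2 and Il17rb lie farthest from 0 on opposite sides in both genotypes, and Myd88 stays within 0.22 of 0.

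Il1rl1 encodes ST2, the chain that binds IL-33. It measured 231 and 424 FPKM in WT control, 389 and 359 in STAT3-KO control, 350.1 and 369.5 in WT IL-33, and 78.5 and 92.4 in STAT3-KO IL-33. The STAT3-KO IL-33 libraries lay apart below the other 6, and WT control library 1 was the lowest of those. In STAT3-KO cells Il1rl1 fell by 2.12 ± 0.24 on the log2 scale with IL-33 (SE; adjusted p = 0.000186), a 4.38-fold lower mean. In WT cells the difference was 0.20 ± 0.24 (adjusted p = 0.533), with a 95% interval from -0.34 to 0.74. This WT value rested on the control libraries: it was -0.24 without WT control library 1 and 0.64, with an adjusted p of 0.0128, without WT control library 2. The interaction was -2.32 ± 0.33 (adjusted p = 0.00410), and with IL-33 the STAT3-KO mean was 4.21-fold lower than that of WT (log2 difference -2.06 ± 0.24, adjusted p = 0.000445). Gene length moved with the groups, since removal of each library's trend on exon length changed the STAT3-KO response of Il1rl1, which has 6894 bases of exon, from -2.12 to -1.76. The table holds 1 value per gene, so the membrane and soluble forms of ST2 were not told apart.

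Il1rap encodes the accessory chain that IL-33, IL-1 and IL-36 receptors share. It was the least abundant member, at 0.640 and 1.05 FPKM in WT control, 0.764 and 1.07 in STAT3-KO control, 0.540 and 0.454 in WT IL-33, and 0.335 and 0.342 in STAT3-KO IL-33. These values stand for 62 to 195 reads, since its exons add up to 11360 bases. Every IL-33 library lay below every control library, but the difference was not called in WT (-0.29 ± 0.22, adjusted p = 0.327) or in STAT3-KO (-0.51 ± 0.22, adjusted p = 0.0831). In STAT3-KO it became 0.03 once the trend on exon length was removed. Il1rap passed the expression filter only through WT control library 2 and STAT3-KO control library 2, where it was high. A fall with IL-33 was therefore favoured in advance, and the IL-33 differences of Il1rap are given as a description. Of its exon bases, 552 lie opposite the antisense gene Gm20319, and the sources used here do not state whether counting used strand. Il1rl1 exceeded Il1rap in every library, by ratios of FPKM of 361 and 404 in WT control, 509 and 336 in STAT3-KO control, 649 and 813 in WT IL-33, and 235 and 270.5 in STAT3-KO IL-33. With a pseudocount of 1, next to which Il1rap is low, the mean ratios were 174, 198, 241 and 64.6 in the same order.

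Il1r2 encodes the decoy receptor of IL-1. It measured 2.81 and 3.08 FPKM in WT control, 3.40 and 3.27 in STAT3-KO control, 359 and 374 in WT IL-33, and 158 and 179 in STAT3-KO IL-33, from 90 to 109 reads in the controls and 4921 to 13641 reads with IL-33. No group that received IL-33 overlapped another group, and the controls differed from each other by less than 1 FPKM. In WT cells it rose by 6.54 ± 0.11 on the log2 scale (adjusted p = 3.55e-08), a 124.5-fold higher mean and the fifth largest rise, rank 5 of 11877 tested genes. In STAT3-KO cells it rose by 5.29 ± 0.11 (adjusted p = 5.27e-08), a 50.7-fold higher mean and rank 16. The response was therefore smaller in STAT3-KO (interaction -1.25 ± 0.16, adjusted p = 0.00266), and with IL-33 the STAT3-KO mean was 2.17-fold lower (-1.12 ± 0.11, adjusted p = 0.000255). Under removal of the exon length trend the interaction was -1.43.

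The ratio of decoy to IL-33 receptor within a library was higher with IL-33 in both genotypes. In WT cells only the rise of Il1r2 was called, and in STAT3-KO cells Il1r2 rose and Il1rl1 fell. The ratio of Il1r2 to Il1rl1 FPKM was 0.0122 and 0.00725 in WT control and 0.00873 and 0.00909 in STAT3-KO control. With IL-33 it was 1.03 and 1.01 in WT, where the genes reached the same level, and 2.01 and 1.94 in STAT3-KO, where decoy mRNA was the more abundant. The higher ratio in STAT3-KO came with a lower Il1r2 and a still lower Il1rl1. Part of this gap moved with exon length, which differs between the genes. Removal of the length trend changed the genotype difference with IL-33 from -1.12 to -1.28 for Il1r2 and from -2.06 to -1.89 for Il1rl1. The ratio itself was not recomputed without that trend.

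**Figure D3:**
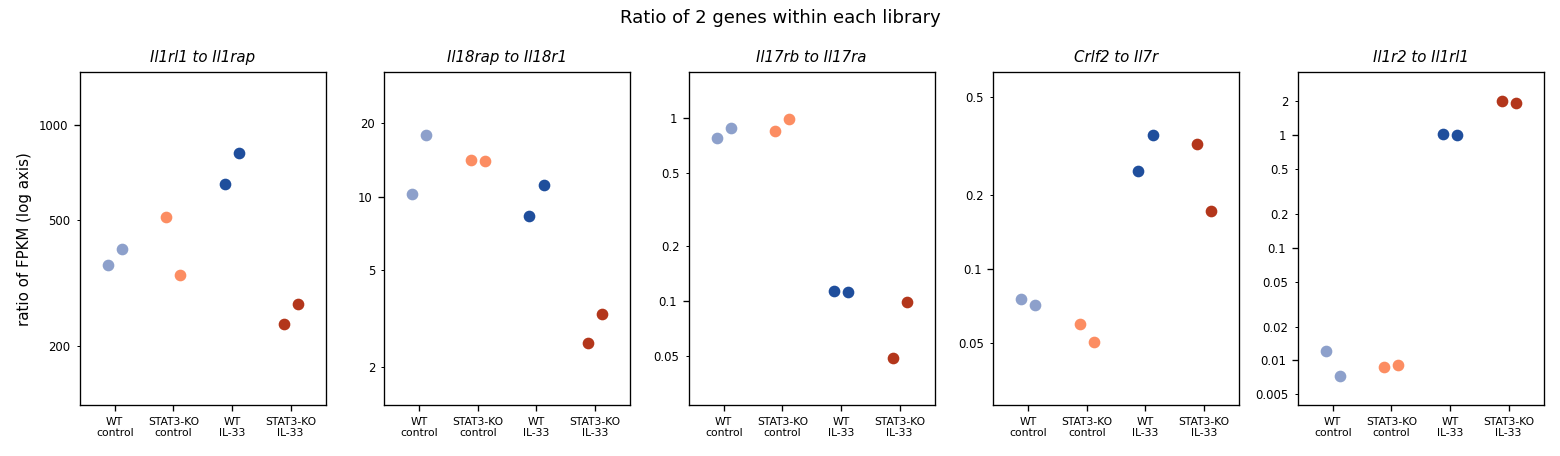
Ratio of FPKM of 2 genes within each library (log axes), for receptor chains of one complex and for the decoy Il1r2 against Il1rl1, with 1 point per library. The Il1r2 to Il1rl1 ratio is at most 0.0122 in all controls, at 1.03 and 1.01 in WT IL-33 and at 2.01 and 1.94 in STAT3-KO IL-33.

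The IL-18 receptor genes lie next to Il1rl1 and went opposite ways in STAT3-KO cells. Il18r1, the chain that binds IL-18, measured 4.97 and 3.67 FPKM in WT control, 4.97 and 4.99 in STAT3-KO control, 5.57 and 4.25 in WT IL-33, and 7.51 and 7.72 in STAT3-KO IL-33. The last group was highest, and the WT groups overlapped. It rose in STAT3-KO cells by 0.53 ± 0.19 on the log2 scale (adjusted p = 0.0454), and the WT difference was 0.15 ± 0.19 (adjusted p = 0.552). The rise was close to the threshold: without STAT3-KO control library 1 or 2 or STAT3-KO IL-33 library 1 or 2 it was 0.52, 0.53, 0.54 and 0.51, with adjusted p-values of 0.137, 0.139, 0.117 and 0.130, and a pseudocount of 0.1 gave an adjusted p of 0.0533. With IL-33 the difference between genotypes was 0.55 ± 0.19 (adjusted p = 0.0536). With each library left out in turn, this difference ran from 0.39 to 0.72. It was called under median-of-ratios scaling (0.58, adjusted p = 0.0494) and after removal of the exon length trend (0.59, adjusted p = 0.0448). The interaction, 0.37 ± 0.27, was not called (adjusted p = 0.375).

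Il18rap, the signalling partner chain, was the more abundant of the pair. It measured 51.1 and 65.8 FPKM in WT control, 70.3 and 69.9 in STAT3-KO control, 46.3 and 47.2 in WT IL-33, and 18.9 and 25.5 in STAT3-KO IL-33. The 4 groups did not overlap. It fell in STAT3-KO cells, with a log2 difference of -1.63 ± 0.16 (adjusted p = 0.000106), a 3.15-fold lower mean, and the WT difference was -0.31 ± 0.16 (adjusted p = 0.176). The interaction was -1.32 ± 0.23 (adjusted p = 0.00866), and with IL-33 the STAT3-KO mean was 2.10-fold lower than that of WT (-1.06 ± 0.16, adjusted p = 0.00190). The ratio of Il18rap to Il18r1 was 10.3 and 17.9 in WT control, 14.1 and 14.0 in STAT3-KO control, and 8.31 and 11.1 in WT IL-33. It was 2.52 and 3.30 in STAT3-KO IL-33, below all other libraries.

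Both chains of the IL-25 receptor fell in both genotypes. Il17rb, which binds IL-25, measured 27.2 and 33.8 FPKM in WT control, 26.7 and 27.9 in STAT3-KO control, 2.28 and 2.54 in WT IL-33, and 0.232 and 0.471 in STAT3-KO IL-33. All 4 IL-33 libraries lay below every control library, and those of STAT3-KO held only 14 and 31 reads, against 153 to 168 in WT IL-33. In WT cells it fell by 3.20 ± 0.17 on the log2 scale (adjusted p = 7.21e-06), a 12.7-fold lower mean and rank 12 of 11877 from the lowest. In STAT3-KO cells it fell by 4.39 ± 0.17 (adjusted p = 9.44e-07), a 77.7-fold lower mean and rank 9 from the lowest. With IL-33 the STAT3-KO mean was 6.85-fold lower (-1.34 ± 0.17, adjusted p = 0.000793). The interaction was -1.19 ± 0.24 (adjusted p = 0.0148), and without STAT3-KO control library 1 or 2 or WT IL-33 library 2 it was -1.22, -1.16 and -1.14 with adjusted p-values of 0.0525, 0.0623 and 0.0579. The pseudocount of 1 compresses so low a level: with 0.1 the IL-33 difference between genotypes was -2.52 and the interaction -2.37. Il17rb shares 141 exon bases with Actr8 on the other strand.

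Il17ra is the chain that IL-17RB and the receptors of several IL-17 cytokines share. It measured 34.7 and 38.4 FPKM in WT control, 31.2 and 28.1 in STAT3-KO control, 19.97 and 22.7 in WT IL-33, and 4.74 and 4.77 in STAT3-KO IL-33. The 4 groups did not overlap. It fell in WT cells by 0.75 ± 0.13 on the log2 scale (adjusted p = 0.00288), a 1.71-fold lower mean, and in STAT3-KO cells by 2.41 ± 0.13 (adjusted p = 4.09e-06), a 6.24-fold lower mean. The interaction was -1.66 ± 0.18 (adjusted p = 0.00138), and with IL-33 STAT3-KO lay 4.49-fold below WT (-1.95 ± 0.13, adjusted p = 3.33e-05). Without the exon length trend, the STAT3-KO response of Il17ra, which has 8662 bases of exon, was -1.97. The ratio of Il17rb to Il17ra was 0.786 and 0.881 in WT control, 0.857 and 0.991 in STAT3-KO control, 0.114 and 0.112 in WT IL-33, and 0.0489 and 0.0987 in STAT3-KO IL-33. The order of the IL-33 groups turned with a pseudocount of 1, to a mean of 0.153 in WT and 0.235 in STAT3-KO.

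Crlf2, the TSLP-binding chain, fell with IL-33 in STAT3-KO cells, and in WT cells it had a difference of the opposite sign that was not called. It measured 37.7 and 38.7 FPKM in WT control, 32.5 and 29.3 in STAT3-KO control, 45.5 and 60.9 in WT IL-33, and 22.6 and 13.5 in STAT3-KO IL-33. WT IL-33 was the highest group and STAT3-KO IL-33 the lowest, with the widest spread between libraries in these 2 groups. The WT difference was 0.45 ± 0.22 on the log2 scale (adjusted p = 0.147) and passed only without STAT3-KO IL-33 library 1 (adjusted p = 0.0493) or library 2 (adjusted p = 0.0484), which share the estimate of the spread. In STAT3-KO cells it fell by 0.78 ± 0.22 (adjusted p = 0.0188), a 1.71-fold lower mean. This call was lost without STAT3-KO control library 1 (-0.71, adjusted p = 0.0822) or library 2 (-0.85, adjusted p just above the threshold), without STAT3-KO IL-33 library 2 (-0.43, adjusted p = 0.0906), and under median-of-ratios scaling (-0.59, adjusted p = 0.0605). With IL-33 the STAT3-KO mean was 2.95-fold lower than that of WT (-1.53 ± 0.22, adjusted p = 0.00142), which held under every alternative run. The interaction was -1.23 ± 0.32 (adjusted p = 0.0344). It was not called without WT control library 1 or 2, STAT3-KO control library 1 or 2, or WT IL-33 library 2, with values of -1.22, -1.25, -1.16, -1.30 and -1.03 and adjusted p-values of 0.0879, 0.0577, 0.0937, 0.0737 and 0.122.

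Il7r, the partner of Crlf2 and also the IL-7 receptor, was far more abundant. It measured 501 and 543 FPKM in WT control, 544 and 581 in STAT3-KO control, 180.4 and 173 in WT IL-33, and 69.6 and 78.4 in STAT3-KO IL-33. It fell in WT, with a log2 difference of -1.56 ± 0.10 (adjusted p = 1.52e-05), and in STAT3-KO, with -2.91 ± 0.10 (adjusted p = 4.95e-07), with an interaction of -1.36 ± 0.14 (adjusted p = 0.000999). The ratio of Crlf2 to Il7r was 0.0753 and 0.0713 in WT control and 0.0596 and 0.0505 in STAT3-KO control. It was 0.252 and 0.351 in WT IL-33 and 0.324 and 0.173 in STAT3-KO IL-33, so that the IL-33 groups lay above the controls and overlapped each other. Among 5 tested TSLP receptor partners and kinases, 2 rose and 1 fell in WT and 2 rose and 2 fell in STAT3-KO, where 36.1% and 51.0% of all tested genes were called. The WT rises, Jak2 (0.93 ± 0.27, adjusted p = 0.0270) and Stat5a (0.52 ± 0.16, adjusted p = 0.0321), were lost without WT control library 1 or either WT IL-33 library, and that of Stat5a also without WT control library 2, with adjusted p-values up to 0.145 and 0.124. The kinase Jak1 fell in STAT3-KO from a mean of 116 to 33.4 FPKM (-1.77 ± 0.15, adjusted p = 4.20e-05), with a WT difference of 0.05 ± 0.15 (adjusted p = 0.809). Stat5a and Stat5b, the transcription factors downstream of TSLP and IL-7, rose in STAT3-KO by 1.60 ± 0.16 (adjusted p = 9.09e-05) and 0.97 ± 0.16 (adjusted p = 0.00131).

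Myd88, the adaptor shared by the IL-1, IL-18 and IL-33 receptors, was nearly level. It measured 66.4 and 67.5 FPKM in WT control, 66.7 and 65.9 in STAT3-KO control, 77.5 and 78.4 in WT IL-33, and 70.6 and 75.3 in STAT3-KO IL-33. IL-33 libraries lay above control libraries in both genotypes. The difference was 0.22 ± 0.09 on the log2 scale in WT (adjusted p = 0.0990) and 0.14 ± 0.09 in STAT3-KO (adjusted p = 0.248). Median-of-ratios scaling gave 0.38 (adjusted p = 0.0153) and 0.34 (adjusted p = 0.0176), and removal of the exon length trend 0.32 (adjusted p = 0.0288) and 0.07 (adjusted p = 0.591), so that the WT difference was called under both and that of STAT3-KO under the first alone. With IL-33 the genotypes differed by -0.10 ± 0.09 (adjusted p = 0.473), with a 95% interval from -0.31 to 0.12. Of its exon bases, 290 are shared with Acaa1a on the other strand.

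Of 19 tested genes of IL-1 family signalling (22 listed), 5 rose and 6 fell in WT, and 5 rose and 7 fell in STAT3-KO. Over all tested genes 14.5% rose and 21.6% fell in WT and 20.4% rose and 30.6% fell in STAT3-KO, and nothing particular to the list is read from its counts. Nfkbia, the NF-kB inhibitor, rose from a mean of 200.5 to 561 FPKM in WT (1.48 ± 0.11, adjusted p = 4.46e-05) and from 216 to 834 in STAT3-KO (1.94 ± 0.11, adjusted p = 6.55e-06). Irak3, the inhibitory kinase that brakes this route, rose from 5.16 to 20.1 FPKM in WT (1.78 ± 0.15, adjusted p = 7.24e-05) and from 4.05 to 10.1 in STAT3-KO (1.13 ± 0.15, adjusted p = 0.000492). Sigirr, a receptor that dampens IL-1 family signals, rose from 35.2 to 49.9 FPKM in WT (adjusted p = 0.0245) and from 40.3 to 66.2 in STAT3-KO (adjusted p = 0.00311). Its WT call was lost without WT control library 1 or 2 or WT IL-33 library 2, with log2 differences of 0.46, 0.50 and 0.30 and adjusted p-values of 0.0914, 0.0654 and 0.153. Irak4, the kinase that MyD88 recruits first, fell from 13.2 to 8.34 FPKM in WT (-0.61 ± 0.14, adjusted p = 0.00978) and from 13.2 to 3.53 in STAT3-KO (-1.64 ± 0.14, adjusted p = 4.07e-05). Its WT call was lost without WT IL-33 library 2 (-0.57, adjusted p = 0.0617). Its interaction was -1.03 ± 0.19 (adjusted p = 0.0113), or -0.97 with an adjusted p of 0.0528 without STAT3-KO control library 1. Traf6, the ubiquitin ligase after the IRAK kinases, fell in STAT3-KO from 4.11 to 1.11 FPKM (-1.28 ± 0.21, adjusted p = 0.00126), with a WT difference of -0.15 ± 0.21 (adjusted p = 0.599). Tnfaip3, which encodes the NF-kB inhibitor A20, rose from 7.10 to 15.5 FPKM in WT (1.03 ± 0.17, adjusted p = 0.00240) and from 7.02 to 11.3 in STAT3-KO (0.61 ± 0.17, adjusted p = 0.0170), the latter not called without STAT3-KO control library 1 (log2 difference 0.51) or STAT3-KO IL-33 library 2 (0.43, adjusted p = 0.0967). Irak2 and Tab2 fell in both genotypes, with log2 differences of -0.72 and -1.33 in WT and -0.73 and -1.30 in STAT3-KO.

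**Figure D4:**
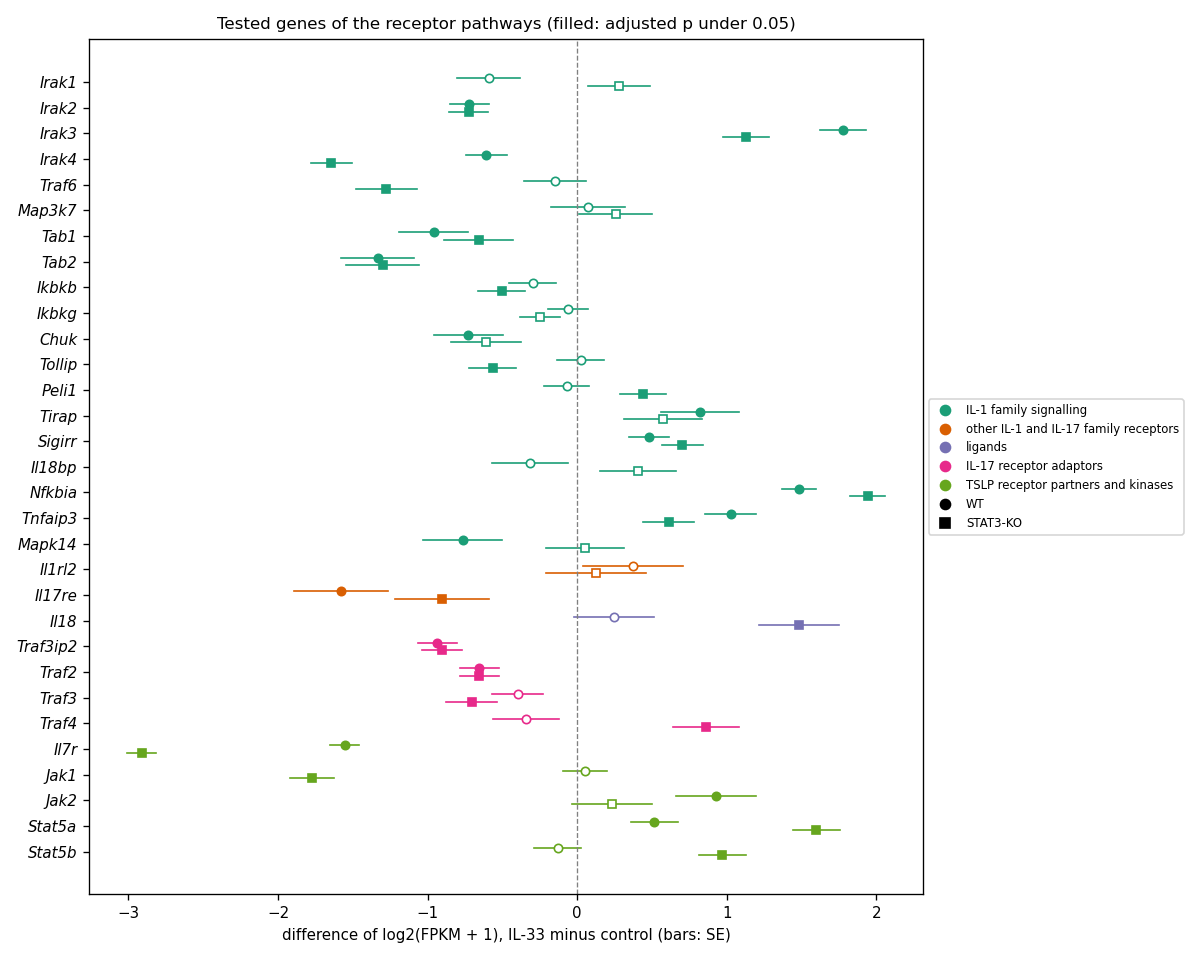
Differences of log2(FPKM + 1) between IL-33 and control for the tested genes of the receptor pathways, with circles for WT, squares for STAT3-KO, bars for the standard error and filled symbols for an adjusted p below 0.05. Nfkbia and Irak3 lie right of 0 in both genotypes, and the STAT3-KO symbols of Il7r, Jak1, Irak4 and Traf6 lie left of those of WT.

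Of 4 tested adaptors of the IL-17 receptors, 2 fell in WT, and 3 fell and 1 rose in STAT3-KO, where 21.6% of all tested genes fell in WT and 30.6% fell and 20.4% rose in STAT3-KO. By the interaction 1 of the 4 was called, Traf4, with a higher response in STAT3-KO. Traf3ip2, which encodes Act1, the adaptor that IL-17RB and IL-17RA recruit, fell from 26.4 to 13.3 FPKM in WT (-0.93 ± 0.13, adjusted p = 0.00107) and from 25.7 to 13.2 in STAT3-KO (-0.91 ± 0.13, adjusted p = 0.000759). Traf2 fell by 0.65 on the log2 scale in both genotypes (adjusted p = 0.00606 in WT and 0.00402 in STAT3-KO). In STAT3-KO Traf3 fell by 0.71 (adjusted p = 0.00959) and Traf4 rose by 0.86 (adjusted p = 0.0120). The Traf3 call was lost without STAT3-KO control library 2 (-0.51, adjusted p = 0.0853), and that of Traf4 without that library (0.67, adjusted p = 0.0843) or STAT3-KO IL-33 library 1 (0.79, adjusted p = 0.0646). Other receptors of these families were scarce: 2 of 7 listed were tested, Il17re and Il1rl2, and Il17re fell in WT from 3.43 to 0.499 FPKM (-1.58 ± 0.31, adjusted p = 0.00552). In STAT3-KO it fell from 1.74 to 0.392 FPKM (-0.91 ± 0.31, adjusted p = 0.0396). That call was lost without a filter (adjusted p = 0.105), under median-of-ratios scaling (0.0562), removal of the length trend (-0.60, 0.144), the replicate block (0.0517) and a fit of the 2 groups alone (0.0814). It was also lost without STAT3-KO control library 2 (-0.45, adjusted p = 0.264) or STAT3-KO IL-33 library 1 (adjusted p = 0.110) or 2 (adjusted p = 0.126). Il17re passed the expression filter only through control libraries, where it was high. A fall was therefore favoured in advance, and the values of Il17re are given as a description. Among the ligands, 1 of 14 listed was tested. That was Il18, at 0 and 0.245 FPKM in WT control, 0 in both STAT3-KO control libraries, 0.487 and 0.179 in WT IL-33, and 2.38 and 1.31 in STAT3-KO IL-33. It was called higher in STAT3-KO with IL-33 than in WT with IL-33 (1.08 ± 0.27, adjusted p = 0.0160), a call lost with a pseudocount of 0.1 (2.21, adjusted p = 0.0825) and without WT IL-33 library 2 (0.91, adjusted p = 0.110). It passed the filter only through the STAT3-KO IL-33 libraries, where it was high, so it had to differ, and the value is given as a description.

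Of the 9 members, 4 lie in a cluster of 8 genes on chromosome 1 that spans 477.627 kb of GRCm38. They are Il1r2 (chr1:40074079-40125231), Il1rl1 (chr1:40429570-40465415), Il18r1 (chr1:40465552-40500854) and Il18rap (chr1:40515362-40551705), all on the plus strand. Only 136 bases separate the end of Il1rl1 from the start of Il18r1, yet with IL-33 in STAT3-KO cells Il1rl1 fell and Il18r1 rose. The rise of Il18r1 was close to the threshold (adjusted p = 0.0454) and was lost without any 1 STAT3-KO library, and its interaction was not called (adjusted p = 0.375). Il1r1 and Il1rl2, the signalling IL-1 receptor and the IL-36 receptor, lie between Il1r2 and Il1rl1. Il1r1 reached at most 0.103 FPKM and Il1rl2 at most 1.22, and Il1rl2 was not called in any comparison. The antisense RNA Gm16894, whose start lies 241 bases from the RefSeq start of Il1r2 on the other strand, was below 0.5 FPKM in every control library, 2.45 and 4.01 in WT IL-33, and 3.42 and 1.94 in STAT3-KO IL-33. It rose by 1.87 ± 0.29 on the log2 scale in WT (adjusted p = 0.00185) and by 1.62 ± 0.29 in STAT3-KO (adjusted p = 0.00233), with an interaction of -0.25 (adjusted p = 0.730). It passed the filter only through the IL-33 libraries, where it was high, so it had to differ, and these values are given as a description. No exon base of Gm16894 lies within an exon of Il1r2, and the sources used here do not state whether counting used strand. The RefSeq start of Il1r2 lies 12.014 kb downstream of the first base that the table gives for the gene. Of 13 genes within 500000 bases of the cluster, 8 were tested. Il1r2 and Gm16894 rose in WT, 2 in all, and 0 fell, where 36.1% of all tested genes were called. In STAT3-KO Il1r2, Gm16894 and Il18r1 rose and Il1rl1, Il18rap and Rnf149 (-0.70, adjusted p = 0.0496) fell, 3 in each direction, where 51.0% of all tested genes were called. Rnf149 passed the filter only through control libraries, where it was high, so that a fall was favoured in advance. As these counts include Gm16894 and Rnf149, they are given as a description, and nothing is read from them against those shares. The Rnf149 call was lost without any 1 library of the STAT3-KO or WT IL-33 groups, with differences from -0.84 to -0.56 and adjusted p-values from 0.0632 to 0.211.

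**Figure D5:**
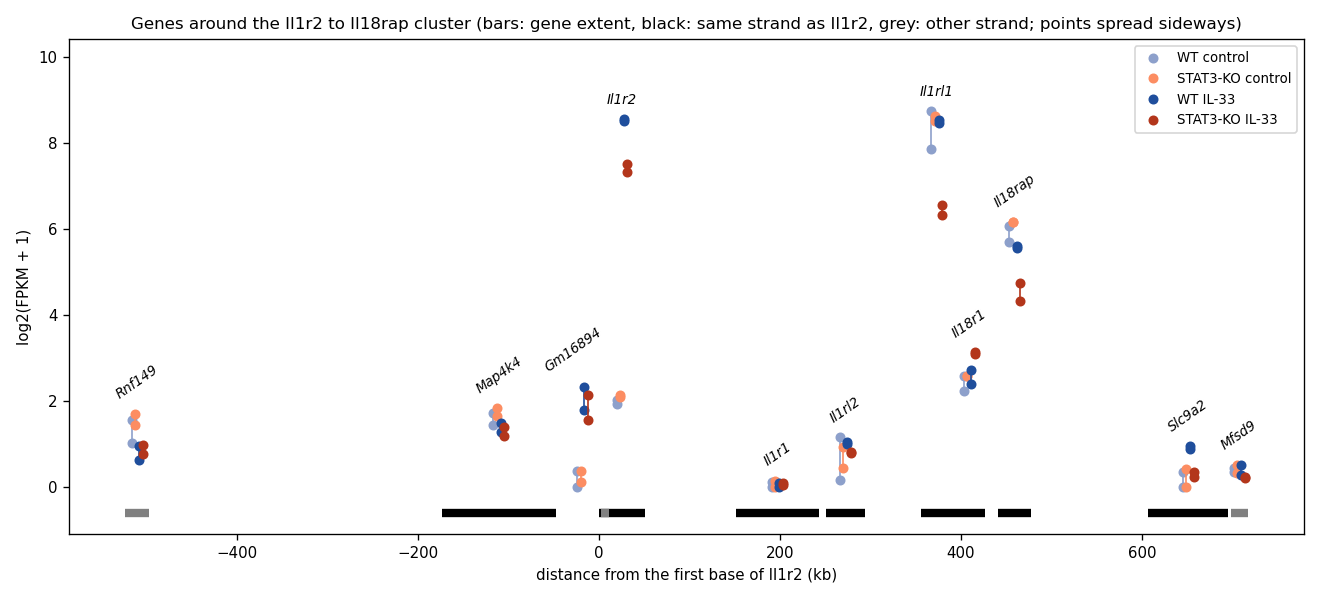
log2(FPKM + 1) of the protein-coding and tested genes around the cluster against distance from the first base of Il1r2 in kb, with 1 point per library, lines joining the 2 libraries of a group and bars for gene extents. Il1r2 is high in the IL-33 libraries alone, its neighbours Il1r1 and Il1rl2 are low in all, and Il1rl1 and Il18rap are lowest in STAT3-KO IL-33.

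The other 5 members lie on 5 chromosomes: Il1rap (chr16:26581704-26730117, plus strand), Il17rb (chr14:29996135-30008896, minus strand), Il17ra (chr6:120463247-120487559, plus strand), Crlf2 (chr5:109554709-109558993, minus strand) and Myd88 (chr9:119335934-119341411, minus strand). All positions are those of the table on GRCm38 and are the same in GENCODE M21.

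The genes whose pattern was most like that of a member were sought by the root mean square of the difference of centred log2 values over the 8 libraries, among 9690 genes. Nearest to Il1rl1 were Uhrf1bp1l (0.11), Slc38a2 (0.17), a neutral amino acid transporter, and Kdm6a (0.17), a histone demethylase. They share the low WT control library 1, with Uhrf1bp1l at 11.1 FPKM there and 19.5 in library 2, and the low STAT3-KO IL-33 libraries, at 3.06 and 4.26. Nearest to Il1r2 were Il5 (0.42), the eosinophil-activating cytokine of ILC2s, Pth (0.47), parathyroid hormone, and Tnfrsf8 (0.52), which encodes CD30. Il5 measured 38.5 and 36.0 FPKM in WT control, 49.2 and 42.4 in STAT3-KO control, 3602 and 3398 in WT IL-33, and 1023 and 818 in STAT3-KO IL-33. Nearest to Il17rb were Acss1 (0.26), Lax1 (0.29) and Eya2 (0.34). Lax1, an adaptor that restrains lymphocyte receptor signals, measured 52.0 and 43.5 FPKM in WT control, 36.8 and 36.3 in STAT3-KO control, 4.63 and 6.55 in WT IL-33, and 0.664 and 0.707 in STAT3-KO IL-33. The likeness describes the same 8 libraries for both genes of a pair, and no test was made of it.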

How the data were processed

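RNA was measured in 8 libraries, and the deposited table gives 1 FPKM value per gene and library, the authors having used Bowtie2, RSEM and the GRCm38 build, per the submitters' processing notes. Versions, annotation release and strand setting are not given in the sources used here. Depth was recovered from FPKM times the GENCODE M21 merged exon length, since 93.4% to 94.6% of values of at most 100 reads per library lay within 0.02 of a whole read.

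Tests were made on log2(FPKM + 1) for 11877 genes with at least 1 FPKM in at least 2 libraries, with limma 3.58.1 in R 4.3.3 (1 mean per group over all 8 libraries, eBayes with trend, 4 residual and 4.46 prior degrees of freedom). P-values are two-sided and were adjusted by Benjamini-Hochberg over all tested genes. Errors are standard errors, and fold values are ratios of mean FPKM with n = 2. A fold on the log2(FPKM + 1) scale understates the change of low genes. The script was tested on simulated data. Other steps used Python 3.11.15 (matplotlib 3.10.9, numpy 2.4.6, pandas 2.3.3).

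The members, lists and markers were chosen with earlier results of these data known. The text names the 9 members, Il7r and Stat3, up to 4 called genes of each list with the smallest p, and the 3 genes most like Il1rl1, Il1r2 and Il17rb. Sigirr, Tab2 and Rnf149, and the Il18r1 and Il18rap windows, go beyond that rule and were chosen after the values were seen. Alternatives were a pseudocount of 0.1, no filter, median-of-ratios scaling, removal of the trend on exon length, a replicate block, a fit of only the compared groups, and each library left out in turn. Tests were run on rows by identifier. Members, lists and markers were matched by symbol, and 14 symbols were listed more than once, none of them a member.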

Additional observations from a re-analysis of the deposited data

Results flagged for a closer look

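The IL-33 response differed between STAT3-KO and WT by the interaction in 14 of the genes named, where 15.1% of all tested genes were called. Apart from the members, Il7r and Stat3, genes were taken up here only where this comparison called them, so nothing is read from that count. All values are the STAT3-KO response minus the WT response on the log2 scale. Among the receptors the called genes were Il1rl1 (-2.32), Il17ra (-1.66), Il18rap (-1.32), Il1r2 (-1.25), Crlf2 (-1.23) and Il17rb (-1.19). Among partners and signalling genes the responses lower in STAT3-KO were those of Jak1 (-1.82 ± 0.21, adjusted p = 0.00172), Il7r (-1.36), Traf6 (-1.13 ± 0.29, adjusted p = 0.0345), Irak4 (-1.03) and the deleted gene Stat3 (-0.94 ± 0.21, adjusted p = 0.0197). Those higher in STAT3-KO were Traf4 (1.20 ± 0.31, adjusted p = 0.0355), Stat5b (1.10 ± 0.22, adjusted p = 0.0144) and Stat5a (1.08 ± 0.22, adjusted p = 0.0147). Several of these calls did not hold under the alternatives. With each of the 8 libraries left out in turn, the call was lost in 7 fits for Traf6, 6 for Traf4, 5 for Stat3, 3 for Stat5a and 2 for Stat5b. Without a filter on low values Traf6 (adjusted p = 0.0816) and Traf4 (adjusted p = 0.0914) were not called either, nor was Traf6 after removal of the length trend (-0.86, adjusted p = 0.0632). The calls of Crlf2, Il17rb and Irak4 were also lost without certain libraries, named with their values above. Over the left-out libraries the highest adjusted p was 0.108 for Traf6, 0.117 for Traf4, 0.0806 for Stat3, 0.0591 for Stat5b and 0.0571 for Stat5a, and it was 0.0127 for Jak1 and 0.00779 for Il7r. Groups of 2 libraries are too small to flag a single library as far from the others.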

How the results depend on the processing

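Of the 22 calls of members, 18 held under every alternative run and 0 changed direction; the others were Il18r1 and Crlf2 in STAT3-KO and the Crlf2 and Il17rb interactions. Without a filter on low values the adjusted p was 0.0764, 0.0613 and 0.104 for the first 3, and the interaction called 1149 genes against 1799. The differences that changed sign were all uncalled. For Il1rap, removal of the length trend gave 0.034 in STAT3-KO, -0.027 between controls, 0.092 between genotypes with IL-33 and 0.12 for the interaction; for Myd88 it gave 0.0015 between controls and for Traf6 0.0023 in WT. With each library left out in turn, Il1rl1 ran from -0.24 to 0.64 in WT and from -0.18 to 0.69 between controls (lowest without WT control library 1, highest without library 2), Jak1 and Traf6 in WT from -0.16 to 0.27 and from -0.39 to 0.094 (by the same libraries), Il18r1 from -0.025 to 0.33 in WT (below 0 without WT control library 2 or WT IL-33 library 1), and, between controls, Il17rb from -0.30 to 0.0027 (above 0 without WT control library 2) and Il1rap from -0.10 to 0.17 (below 0 without WT control library 1). Between controls, 34 genes were called with a pseudocount of 0.1 and 0 in a fit of the 2 groups alone, against 55. Over the same left-out libraries, 2528 to 4344 genes were called in WT, 4245 to 6244 in STAT3-KO, 1 to 43 between controls, 2141 to 4085 between genotypes with IL-33 and 857 to 2048 by the interaction, and members called numbered 3 to 4, 5 to 7, 0 to 0, 6 to 7 and 4 to 6. These fits hold fewer samples, and a group left with 1 library is assumed to vary like the others. Without WT control library 2 or STAT3-KO control library 2, Il1rap did not pass the filter. With a pseudocount of 1 in the pair ratios, Il1rl1 to Il1rap was 174, 198, 241 and 64.6 in WT control, STAT3-KO control, WT IL-33 and STAT3-KO IL-33, Il17rb to Il17ra was 0.153 in WT IL-33 and 0.235 in STAT3-KO IL-33, which turned the order of these groups, and in STAT3-KO control Il18rap to Il18r1 was 11.9 and Il1r2 to Il1rl1 0.0116. Same-numbered libraries did not deviate together (r from -0.06 to 0.04 over 6 pairs of groups). A replicate block, in the order above, called 4271, 6015, 37, 3813 and 1827 genes and ended 2 of 118 results, both in STAT3-KO: Il17re (-0.91, adjusted p = 0.0517) and Rnf149 (-0.70, adjusted p = 0.0637). The values of Il17rb in STAT3-KO IL-33 rest on 14 and 31 reads, and 2 libraries a group bound the precision of every test.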
